A study of Mus musculus with 8 samples.

Results

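The ETS transcription factors described here are Spi1, Spib, Fli1, Erg, Ets1, Ets2, Elf1, Elf4, Etv6 and Gabpa. They are 10 of the 18193 genes named on the array, and every probe set whose platform symbol is 1 of these names was taken, which gave 21 of 45101 probe sets. They were measured in spleen cells of leukemic mice on Affymetrix mouse expression arrays. The truncated mice expressed CBFb-SMMHCd179-221, a shortened form of the leukemia fusion of CBFb with smooth muscle myosin heavy chain that lacks a stretch known for tight RUNX1 binding, and were sampled at the age of 3 weeks with no mutagen named. The full-length mice expressed CBFb-SMMHC and were sampled 2 months after they had received the mutagen ENU, with no age named. Both groups thus carried a CBFb-SMMHC fusion and had leukemia, and healthy spleen was not analysed here. Genotype, mutagen and time of sampling cannot be told apart. The sample labels call both groups chimeras, while the series text calls the full-length mice knock-in, so the share of fusion-bearing cells in each spleen is unknown. Each genotype had 2 animals and 4 arrays, 1 array for animal 1 and 3 arrays for animal 2.

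ETS factors share a DNA-binding domain that recognises a GGAA core, and in blood cells different members serve different lineages. Spi1 encodes PU.1, which is needed for macrophages, neutrophils and B cells, and whose dose matters. Fli1 and Erg act in stem cells and megakaryocytes, and Fli1 restrains erythroid differentiation when its level is high. Several ETS factors bind DNA next to RUNX1, the partner of CBFb that the CBFb-SMMHC fusion interferes with.

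All values are log2 expression after RMA, the authors' normalization, which draws the values of dim probe sets together. Levels of different genes are not compared, because probe sets differ in brightness. The 8 arrays had medians between 4.71 and 4.78. In both genotypes, array 1 of animal 2 resembled the array of animal 1 more than it resembled the other arrays of its own animal. Over 11386 genes, its root mean square difference from the array of animal 1 was 0.338 in truncated and 0.340 in full-length mice. Its difference from arrays 2 and 3 of its own animal was 0.573 for each in truncated mice, against 0.897 and 0.904 in full-length mice. Arrays 2 and 3 differed by only 0.139 in truncated and 0.143 in full-length mice. The assignment of arrays to animals is that of the labels, and whether it is right was not tested. Each p-value and each n of 2 animals given here depends on it. Animal means of animal 2 mix unlike arrays, and each factor is given array by array before any mean. The 3 arrays of animal 2 are listed in their numbered order throughout, and lists of 4 values start with the array of animal 1.

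Fli1 had the largest difference of the 10 factors, and it rested on 2 full-length arrays. Its brightest probe set read 7.72 for truncated animal 1 and 8.92, 9.46 and 9.33 for the 3 arrays of truncated animal 2, against 3.67 for full-length animal 1 and 3.66, 9.40 and 9.43 for the 3 arrays of full-length animal 2. Full-length arrays 2 and 3 of animal 2 thus lay within the range of the truncated arrays, and the other full-length arrays were far below all the rest. Both low values were below the medians of their own arrays (4.71 and 4.75), where RMA values are drawn together, so the size of any difference from them is uncertain. Within full-length animal 2, arrays 2 and 3 exceeded array 1 by 5.75 as measured, while the same step within truncated animal 2 was 0.47. The span of 5.80 over the 8 arrays was larger than that of 99.7% of the genes tested, where the median span was 0.861. The second Fli1 probe set was low on the same 2 full-length arrays, at 7.49, 7.73, 8.11 and 8.08 on the truncated arrays and 4.65, 4.16, 7.63 and 7.66 on the full-length arrays.

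The mean over animals for Fli1 was 8.48 ± 1.07 in truncated and 5.58 ± 2.71 in full-length mice (SD, n = 2 animals each). The difference of 2.90 had a 95% interval from -0.37 to 6.16 and did not pass (limma, adjusted p = 0.416). Without the array of full-length animal 1 alone the difference was 0.98, and without these 2 low full-length arrays it was -0.94. Without all arrays of full-length animal 2, it was 4.81 and passed (limma, adjusted p = 0.0244), in a fit that called 5.73% of all genes and assumed the lone full-length animal to vary like the truncated ones.

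Erg, a close relative of Fli1 that maintains blood stem cells, was lowest on the same 2 full-length arrays. Erg read 6.44 for truncated animal 1 and 6.29, 7.19 and 7.29 for the 3 arrays of truncated animal 2, against 5.51 for full-length animal 1 and 5.29, 7.17 and 7.13 for the 3 arrays of full-length animal 2. Arrays 2 and 3 of animal 2 were the highest in both genotypes, and the genotypes overlapped. Arrays 2 and 3 exceeded array 1 by 0.95 within truncated animal 2 and by 1.86 within full-length animal 2. The genotype difference was 0.67 (95% interval -0.37 to 1.70, limma, adjusted p = 0.568) and turned to -0.46 without these 2 arrays. It was 0.16 without the array of full-length animal 1 alone and 0.36 without array 1 of full-length animal 2 alone. The other Erg probe set differed by 0.20 and read between 4.71 and 5.29 on the 8 arrays.

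Etv6, a repressor of the ETS family that blood formation in the adult marrow requires, was the factor with the smallest p. Etv6 read 8.12 for truncated animal 1 and 8.05, 8.28 and 8.41 for the 3 arrays of truncated animal 2, against 7.24 for full-length animal 1 and 6.50, 8.32 and 8.46 for the 3 arrays of full-length animal 2. The truncated arrays stayed within a narrow band, and the low full-length arrays were the same 2 as for Fli1. Etv6 averaged 8.18 ± 0.09 in truncated and 7.50 ± 0.37 in full-length mice (SD, n = 2 animals each). The difference of 0.68 (95% interval 0.000971 to 1.36) had an unadjusted p of 0.0498 in the limma fit and an adjusted p of 0.354, and it was -0.21 without these 2 arrays. It was 0.42 without the array of full-length animal 1 alone and 0.37 without array 1 of full-length animal 2 alone. The second Etv6 probe set read 6.21, 6.23, 5.95 and 5.91 on the truncated arrays and 4.77, 4.28, 6.11 and 6.19 on the full-length arrays, which is again low on these 2 arrays.

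**Figure D1:**
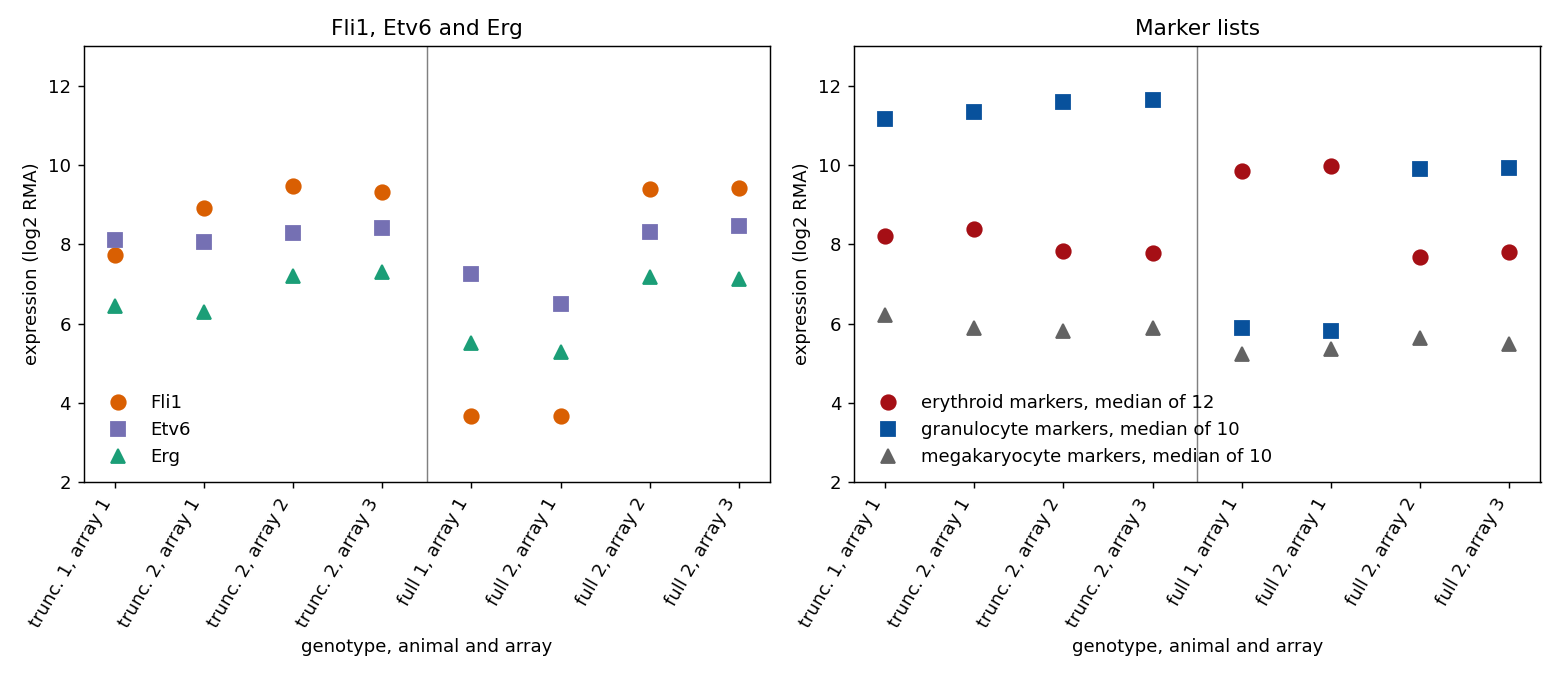
Log2 expression on each of the 8 arrays (horizontal axis, truncated arrays left, full-length arrays right) for Fli1, Etv6 and Erg in the left panel, and for the median of the erythroid, granulocyte and megakaryocyte marker lists in the right panel. Fli1 lies at 3.67 and 3.66 on the 2 full-length arrays where the erythroid median is 9.84 and 9.98, and at 9.40 and 9.43 where it is 7.67 and 7.81.

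The medians of some marker lists of other cell types also set apart the 2 full-length arrays with low Fli1. The median of the 12 erythroid markers on the array was 8.20 for truncated animal 1 and 8.38, 7.83 and 7.79 for the 3 arrays of truncated animal 2, against 9.84 for full-length animal 1 and 9.98, 7.67 and 7.81 for the 3 arrays of full-length animal 2. Their summed linear level ranged from 2765 to 7619 over the truncated and from 2776 to 18236 over the full-length arrays, and Hba-a1 was the only one below the array median on all arrays. Alas2 and Tspo2 did not share the pattern of the erythroid median. Alas2 read 11.2, 11.3, 8.4 and 8.3 on the truncated and 11.0, 11.4, 8.1 and 8.1 on the full-length arrays. Tspo2 read 8.26, 8.43, 7.92 and 7.92 on the truncated and 8.28, 8.44, 8.11 and 8.15 on the full-length arrays. Klf1, Epor, Slc4a1, Ank1, Epb42, Rhag, Trim10, Sptb and Kel were highest on the 2 full-length arrays with low Fli1. The 10 granulocyte markers were instead lowest on the 2 full-length arrays with low Fli1, with medians of 11.16, 11.32, 11.58 and 11.63 on the truncated arrays and 5.88, 5.81, 9.90 and 9.93 on the full-length arrays. Their summed level ranged from 23675 to 31883 over the truncated and from 709.8 to 11704 over the full-length arrays. In bulk RNA, fewer cells of a type and less RNA per cell cannot be told apart. The part of these cell types in the Fli1, Erg and Etv6 values was not tested. Megakaryocytes also express Fli1 and Erg. The median of their 10 markers was 6.21, 5.88, 5.82 and 5.89 on the truncated and 5.25, 5.35, 5.64 and 5.50 on the full-length arrays. It was thus lowest on the 2 full-length arrays with low Fli1. Gp6 and Vwf were below the array median on all arrays. The summed level of the 10 megakaryocyte markers ranged from 1147 to 1316 over the truncated and from 1238 to 1433 over the full-length arrays. Gp5, the brightest of them, went the other way from the median on the full-length arrays, at 9.75, 9.92, 9.19 and 9.32. Gp9 did so too, at 6.05, 6.10, 5.56 and 5.45. Among the full-length arrays, Itga2b, Itgb3, Pf4, Ppbp and Treml1 were lower on the 2 with low Fli1, as the median was. Of the 10 endothelial markers, Cdh5, Tie1, Emcn and Robo4 were below the array median on all arrays, and the summed level ranged from 492 to 615 over the truncated and from 417 to 672 over the full-length arrays. The 4 stromal markers summed to 74.5 to 96.9 over the truncated and 77.5 to 547.5 over the full-length arrays, with Col1a1 and Col3a1 below the array median on all arrays. Of these, Dcn, a matrix proteoglycan of fibroblasts, read 5.29, 5.05, 4.74 and 4.56 on the truncated and 8.94, 8.47, 4.79 and 4.93 on the full-length arrays, so it was high on the 2 full-length arrays with low Fli1. The median of the stromal list lay between 4.22 and 4.44 on the truncated and between 4.13 and 4.33 on the full-length arrays.

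Promoters are shown for Etv6 and Erg, because both were low on the same full-length arrays and both have an entry in the RefSeq promoter table of build GRCm38.p6. The table held 7 of the 10 factors, all but Spi1, Fli1 and Ets1. The window runs from 250 to 11 bases before the annotated start, 5′ to 3′ on the strand of the gene, with the Etv6 window at chr6:134035450-134035689 on the plus strand and the Erg window at chr16:95586604-95586843 on the minus strand. Capitals mark the ETS core GGAA or its reverse complement TTCC.
Etv6: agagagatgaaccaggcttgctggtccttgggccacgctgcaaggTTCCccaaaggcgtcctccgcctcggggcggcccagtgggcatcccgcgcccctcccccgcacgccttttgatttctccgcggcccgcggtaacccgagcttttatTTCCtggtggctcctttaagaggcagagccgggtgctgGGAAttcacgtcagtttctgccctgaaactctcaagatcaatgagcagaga
Erg: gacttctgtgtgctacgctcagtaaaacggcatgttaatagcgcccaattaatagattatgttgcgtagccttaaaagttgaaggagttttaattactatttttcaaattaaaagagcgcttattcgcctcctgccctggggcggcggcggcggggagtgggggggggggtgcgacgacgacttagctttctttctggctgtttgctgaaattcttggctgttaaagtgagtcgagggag
The Etv6 window held 3 matches to the core on either strand, and the Erg window held 0. Over 32851 promoter windows of 240 bases, 92.7% held at least 1 match, with a median of 3. The RUNX motif TGTGGT, searched on both strands, had 0 matches in both windows and was found in 13.6% of all windows. With 0 RUNX matches, no overlap with an ETS match was possible.

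Spi1 was higher on only some of the truncated arrays. Spi1 (1 probe set) read 10.06 for truncated animal 1 and 9.33, 8.49 and 8.56 for the 3 arrays of truncated animal 2, against 8.54 for full-length animal 1 and 8.23, 8.61 and 8.70 for the 3 arrays of full-length animal 2. The array of truncated animal 1 and array 1 of truncated animal 2 stood above all full-length arrays, while arrays 2 and 3 of truncated animal 2 lay within the full-length range. Arrays that carry the same animal and array label differed by 1.52, 1.10, -0.12 and -0.15. Spi1 averaged 9.43 ± 0.90 in truncated and 8.53 ± 0.02 in full-length mice (SD, n = 2 animals each). The difference of 0.90, or 1.87-fold, had a 95% interval from -0.23 to 2.03 and did not pass (limma, adjusted p = 0.466). It was 0.27 without the array of truncated animal 1, 1.53 without all arrays of truncated animal 2, and 0.77 when the 2 full-length arrays with low Fli1 were left out.

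Spib, the closest relative of Spi1, is used by B cells and plasmacytoid dendritic cells. Spib (1 probe set) read 4.30 for truncated animal 1 and 4.42, 5.24 and 5.28 for the 3 arrays of truncated animal 2, against 4.27 for full-length animal 1 and 4.48, 4.27 and 4.20 for the 3 arrays of full-length animal 2. It lay below the array median on 6 arrays and above it only on arrays 2 and 3 of truncated animal 2, which are the truncated arrays where Spi1 was lowest. Spib did not pass the filter on dim genes. In the fit with no filter its difference was 0.35 (95% interval -0.36 to 1.07, limma, adjusted p = 0.774).

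The median of the 7 plasmacytoid dendritic cell markers was highest on the same 2 truncated arrays. It was 5.92 for truncated animal 1 and 5.90, 6.73 and 6.75 for the 3 arrays of truncated animal 2, against 5.72 for full-length animal 1 and 5.59, 5.37 and 5.44 for the 3 arrays of full-length animal 2. Their summed level ranged from 459 to 623 over the truncated and from 342 to 579 over the full-length arrays. These markers did not all share the pattern of their median. On the truncated arrays Cox6a2 did (5.92, 5.90, 6.80 and 6.75). Siglech (5.67, 5.41, 5.61 and 5.67) and Tcf4 (7.38, 7.34, 7.38 and 7.33) were about level there. Irf7 was highest on arrays 2 and 3 of full-length animal 2, at 7.82 and 8.19. The median of the 10 B cell markers was 4.66, 4.41, 5.36 and 5.72 on the truncated and 4.47, 4.62, 4.35 and 4.25 on the full-length arrays. Of these B cell markers, Pax5, Ebf1, Cr2 and Fcer2a were below the array median on all arrays, and the summed level ranged from 336 to 550.5 over the truncated and from 218 to 246 over the full-length arrays. The 10 red pulp macrophage markers, cells that use Spi1 and its relative Spic, had medians of 8.19, 8.34, 7.91 and 7.90 on the truncated and 6.00, 6.01, 6.72 and 6.74 on the full-length arrays. The summed level of these macrophage markers ranged from 2572 to 3135 over the truncated and from 970.4 to 1156 over the full-length arrays, with 0 of them below the array median on all arrays. The part of these cells in the Spi1 and Spib values was not tested.

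**Figure D2:**
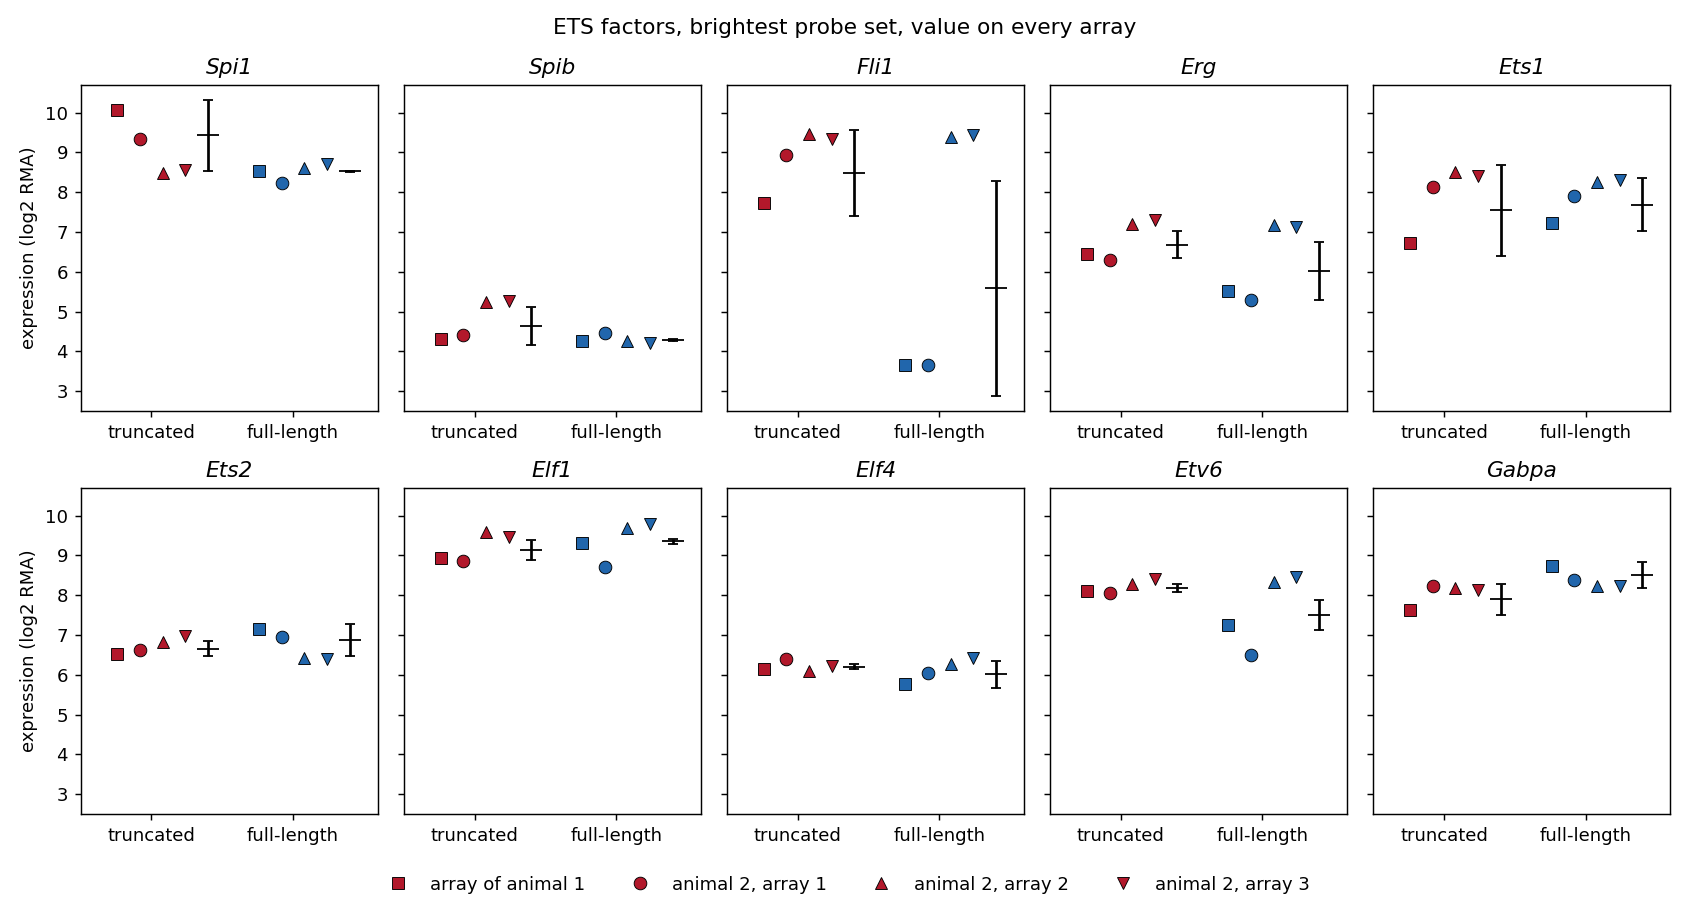
Log2 expression of each of the 10 factors by its brightest probe set, 1 panel per gene, with the 4 truncated arrays left and the 4 full-length arrays right. Marker shapes show the animal and array, and the bars show each genotype's mean ± SD (n = 2 animals), in which Fli1 stands out at 3.67 and 3.66 on 2 full-length arrays.

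Ets1 and Ets2, which are phosphorylated through the Ras pathway and of which Ets1 serves lymphoid cells, had small differences. Ets1 read 6.73 for truncated animal 1 and 8.12, 8.52 and 8.41 for the 3 arrays of truncated animal 2, against 7.22 for full-length animal 1 and 7.90, 8.26 and 8.31 for the 3 arrays of full-length animal 2. The array of animal 1 was the lowest in both genotypes. The Ets1 difference of -0.14 (95% interval -1.70 to 1.41, limma, adjusted p = 0.952) was 0.66 without the array of truncated animal 1. Ets1 also differed by 0.11 as the mean of its 4 probe sets, and 1 of its dim probe sets had no overlap between the genotypes, as had 19.0% of all genes by their brightest probe set. This dim probe set read 5.82, 5.51, 5.71 and 5.73 on the truncated and 5.29, 5.45, 5.39 and 5.50 on the full-length arrays. Markers of T cells and NK cells, which use Ets1, had a summed level of 374 to 694 over the truncated and 356 to 659 over the full-length arrays, with Cd3g, Cd2, Cd5, Ncr1 and Prf1 of the 14 markers below the array median on all arrays.

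Ets2 read 6.52 for truncated animal 1 and 6.61, 6.81 and 6.98 for the 3 arrays of truncated animal 2, against 7.16 for full-length animal 1 and 6.96, 6.42 and 6.40 for the 3 arrays of full-length animal 2. It was lower on the array of truncated animal 1 and on array 1 of truncated animal 2 than on the full-length arrays of the same label, and higher on arrays 2 and 3. Its difference of -0.22 had a 95% interval from -0.95 to 0.51 (limma, adjusted p = 0.828) and was 0.069 without the array of full-length animal 1. The 2 other Ets2 probe sets, which can match related sequences, differed by -0.0042 and 0.059.

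Fli1 and Ets1 lie next to each other on mouse chromosome 9, and Erg and Ets2 on chromosome 16, each pair with 0 annotated protein-coding genes between them in GRCm38.p6. On the 2 full-length arrays where Fli1 read 3.67 and 3.66, Ets1 read 7.22 and 7.90, which was also below its 8.26 and 8.31 on the other full-length arrays, by less than for Fli1. Ets2 read 7.16 and 6.96 on the arrays where Erg read 5.51 and 5.29, which was above its 6.42 and 6.40 on the other full-length arrays.

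Elf1 and Elf4 belong to another branch of the family. Elf1 binds promoters of lymphoid genes, and Elf4 (known as MEF) is known for roles in NK cells and stem cell quiescence. Elf1 read 8.95 for truncated animal 1 and 8.87, 9.58 and 9.46 for the 3 arrays of truncated animal 2, against 9.31 for full-length animal 1 and 8.70, 9.70 and 9.80 for the 3 arrays of full-length animal 2. The Elf1 difference was -0.23 (95% interval -0.84 to 0.37, limma, adjusted p = 0.768), and -0.32 by its other probe set. The main value was -0.62 without the 2 full-length arrays with low Fli1 and -0.054 without the array of truncated animal 1. Elf4 read 6.16, 6.41, 6.11 and 6.22 on the truncated and 5.77, 6.05, 6.27 and 6.43 on the full-length arrays, with a difference of 0.19 (95% interval -0.47 to 0.85, limma, adjusted p = 0.832). Elf1 and Elf4 overlapped between the genotypes. Without the array of full-length animal 1 the Elf4 difference was -0.048.

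Gabpa, the DNA-binding subunit of the GABP complex that drives many mitochondrial and housekeeping genes, had the largest negative difference of the factors. Gabpa read 7.62 for truncated animal 1 and 8.23, 8.17 and 8.13 for the 3 arrays of truncated animal 2, against 8.73 for full-length animal 1 and 8.38, 8.22 and 8.23 for the 3 arrays of full-length animal 2. The array of truncated animal 1 stood below the other 7 arrays, which kept within 8.13 to 8.73. Gabpa averaged 7.90 ± 0.40 in truncated and 8.50 ± 0.32 in full-length mice (SD, n = 2 animals each), a difference of -0.61 (95% interval -1.38 to 0.17, limma, adjusted p = 0.476). The difference was -0.33 without the array of truncated animal 1 and -0.38 without the array of full-length animal 1, and it was -0.34 by the other probe set.

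**Figure D3:**
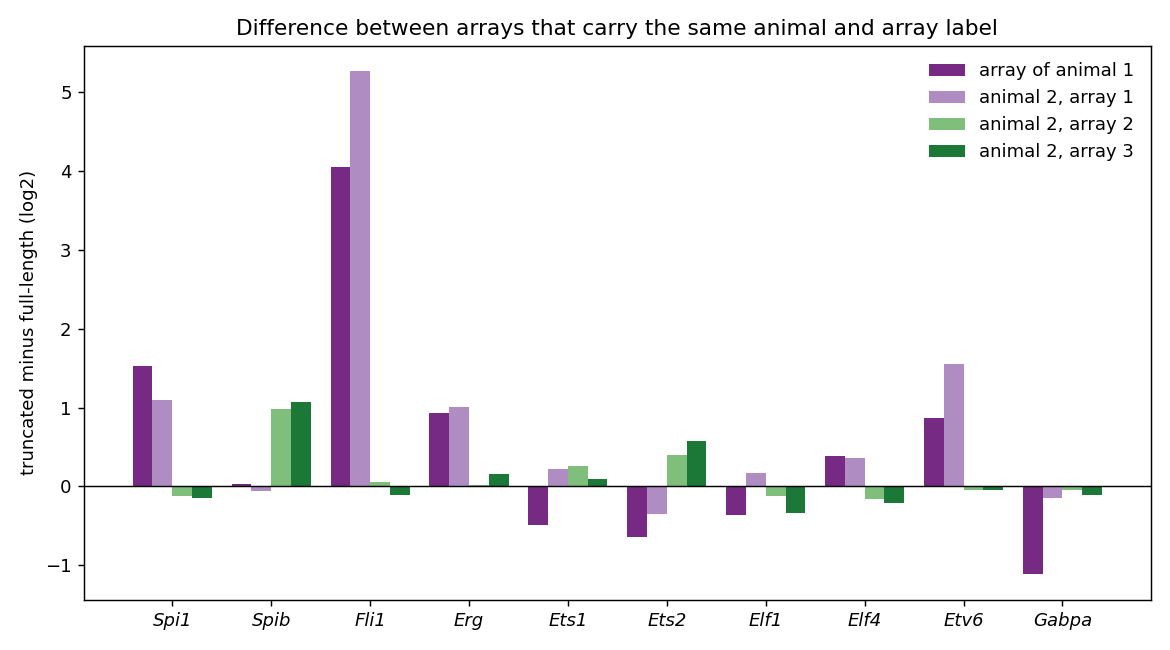
Difference in log2 expression, truncated minus full-length, between arrays that carry the same animal and array label, with 4 bars for each of the 10 factors. Fli1 differs by 4.05 and 5.26 on the first 2 label pairs and by 0.063 and -0.10 on the other 2, and Spib differs by 0.036 and -0.052 on the first 2 and by 0.98 and 1.07 on the other 2.

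Of the 10 factors, 9 passed the filter on dim genes, which asked for a value above the median of all probe sets in 2 or more of the 4 animals. Of these, 5 had a higher and 4 a lower mean in truncated mice, and the median difference was 0.19, beside -0.013 over all 11386 genes, of which 48.5% were higher. In limma, 0 of the 9 passed an adjusted p of 0.05, as did 0 of 11386 genes (0%). At an unadjusted p of 0.05, 1 of the 9 passed, Etv6, beside 14.1% of all genes in either direction (8.79% higher and 5.31% lower). None of the 9 had arrays that did not overlap between the genotypes (0 of 9), beside 19.0% of all genes in either direction (10.3% higher and 8.76% lower). The share of factors called was near or below that background.

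The choice of arrays decided which factors passed. With only array 1 of each animal, 4 of the 9 factors passed an adjusted p of 0.05 in limma, in a fit that called 26.7% of all genes. They were Fli1 (difference 3.21, here by its second probe set, which was then the brighter one, adjusted p = 1.43e-09), Spi1 (1.31, adjusted p = 0.000355), Etv6 (1.21, adjusted p = 0.000684) and Erg (0.97, adjusted p = 0.00178). These are the arrays that resembled each other within a genotype although the labels give them to different animals, and the small p-values depend on that assignment. With the animal number as a replicate block, 0 of the 9 passed the adjusted p, which 1.81% of all genes did, and Fli1, Etv6 and Erg passed the unadjusted p of 0.05, which 18.4% of all genes did. With the animal and array number as a replicate block on the 8 arrays, 0 passed either, beside 8.28% of all genes for the adjusted and 27.3% for the unadjusted p. The fit on 8 arrays counts the 3 arrays of an animal as separate pairs.

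**Figure D4:**
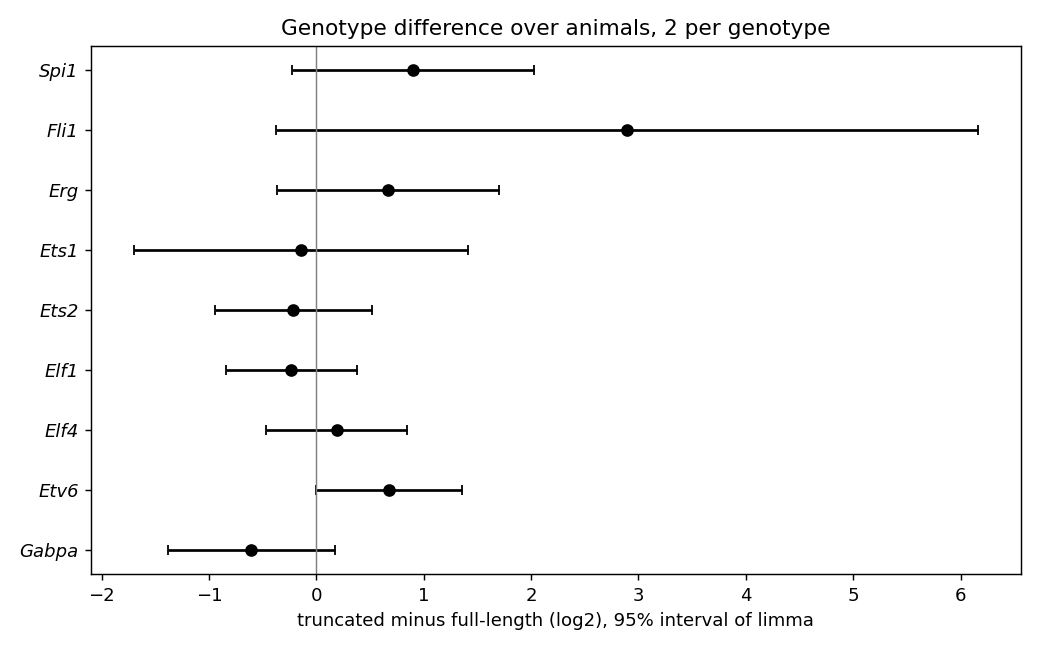
Difference in log2 expression, truncated minus full-length, with the 95% interval of the limma fit over 2 animals per genotype, for the 9 factors that passed the filter. Every interval but that of Etv6 (0.000971 to 1.36) spans 0, and that of Fli1 (-0.37 to 6.16) is the widest.

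For each factor whose span over the 8 arrays exceeded 1 log2 unit, the genes with the most similar profile were found by root mean square distance between centred profiles over the 8 arrays, which share animals. Nearest to Fli1 were Tmem40 (distance 0.412), Far2 (0.502) and Cpa3 (0.556), a mast cell carboxypeptidase. Nearest to Spi1 were Cenpx (0.137), the DNA methyltransferase Dnmt3a (0.150) and the Toll-like receptor Tlr6 (0.158). Nearest to Spib were Best1 (0.100), the B cell surface protein Cd22 (0.101) and Hlcs (0.107). Erg had Bbs9 (0.099), the cannabinoid receptor Cnr2 (0.116) and Gpr137b-ps (0.152). Etv6 had Appl1 (0.132), Rwdd3 (0.139) and Hsd17b11 (0.142), and Gabpa had Trnt1 (0.068), the kinase Pdpk1 (0.078) and the chromatin organiser Ctcf (0.080). Ets1 lay nearest to the corepressor Bcor (0.141), then Zfp995 (0.178) and Tob2 (0.189), and Elf1 to Zfp472, Zbtb41 and Rab10os (0.106, 0.106 and 0.109).

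Most of the PU.1 targets listed here had higher means in truncated mice. The list is a choice of known targets, made with earlier results of these data known. Its shares therefore describe the list and do not test PU.1. Of 22 target genes listed, 21 were on the array and 20 passed the filter, of which 19 had a higher mean in truncated mice and Btk a lower one. At an unadjusted p of 0.05 in limma, 17 of the 20 were higher (8.79% of all genes) and 0 lower (5.31%), and 14 had truncated arrays above all full-length arrays (10.3%). Their median difference was 1.68, beside -0.013 over all genes, and 0 passed the adjusted p.

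The NADPH oxidase subunit Cybb read 9.84, 9.64, 10.18 and 10.17 on the truncated and 8.10, 7.57, 7.68 and 7.79 on the full-length arrays, a difference of 2.03 (limma, adjusted p = 0.0821). It was high on truncated arrays 2 and 3 of animal 2, where Spi1 lay in the full-length range. Among the truncated arrays, Elane, Itgam, Lyz2 and Ncf1 were also highest on these 2. Csf1r, Csf3r, Fcgr1, Fcgr3, Cd68, Msr1, Adgre1, Ncf4, Tlr4 and Tyrobp were instead lowest there, as Spi1 was. The other targets that passed the filter did neither. Csf1r read 11.36, 11.22, 10.28 and 10.28 and Lyz2 11.81, 12.09, 12.39 and 12.36 on the truncated arrays. The granulocyte colony-stimulating factor receptor Csf3r averaged 8.91 ± 0.13 in truncated and 7.29 ± 0.11 in full-length mice, a difference of 1.62 (SD, n = 2 animals each; limma, adjusted p = 0.0821). Csf2ra, a chain of the receptor for GM-CSF, averaged 8.95 ± 0.04 in truncated and 6.93 ± 0.45 in full-length mice, a difference of 2.02 (SD, n = 2 animals each; limma, adjusted p = 0.0825). The macrophage gene Adgre1 averaged 7.83 ± 0.17 in truncated and 6.00 ± 0.42 in full-length mice (SD, n = 2 animals each), a difference of 1.83 (limma, adjusted p = 0.0847). The granulocyte and macrophage markers above were higher in the same animals, and their part in the target values was not tested. Adgre1 is also on the macrophage and Elane on the granulocyte marker list. Without array 1 of animal 2 in both genotypes, 11 of the 20 targets passed the unadjusted p and the median was 1.44. Without the 2 full-length arrays with low Fli1, 11 passed and the median was 1.22. With the animal number as a replicate block, 7 of the 20 passed the adjusted p (1.81% of all genes). With the animal and array number as a replicate block, 10 did (8.28%). The labels give no pairing of the genotypes beyond the shared numbers. The second of these fits also counts the 3 arrays of an animal as separate pairs.

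**Figure D5:**
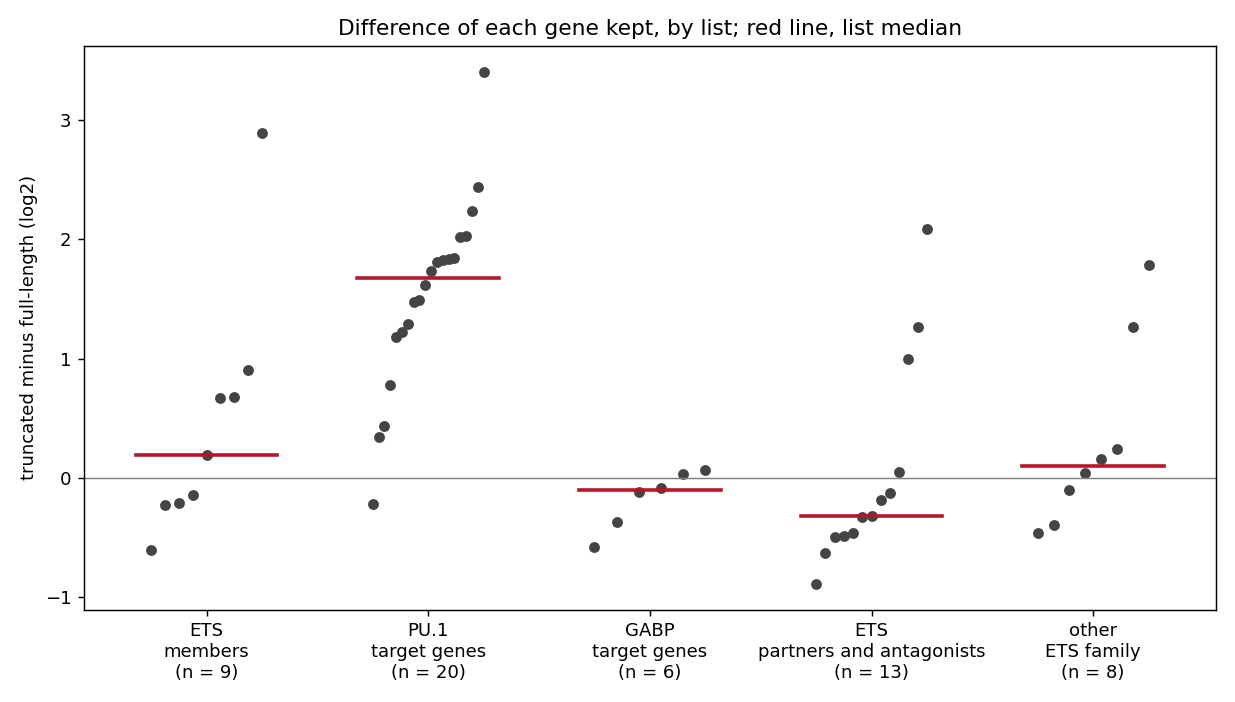
Difference in log2 expression, truncated minus full-length, of each gene that passed the filter, by list, with the median of each list as a red line. The 20 PU.1 targets have a median of 1.68, while the 9 ETS factors (0.19), 6 GABP targets (-0.10), 13 partners and antagonists (-0.32) and 8 other ETS family genes (0.10) have medians near 0.

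Targets of GABP had a median difference near 0. All 6 on the array passed the filter, 2 with a higher and 4 with a lower mean in truncated mice, and their median difference was -0.10, with 0 past the unadjusted p in limma (8.79% of all genes higher, 5.31% lower). The mitochondrial transcription factor Tfam read 8.08, 8.03, 8.07 and 8.03 on the truncated and 8.86, 8.48, 8.42 and 8.41 on the full-length arrays, with no overlap (8.76% of all genes in this direction) and a difference of -0.58 (limma, adjusted p = 0.395). Tfb2m, a mitochondrial transcription cofactor, differed by -0.37, the ATP synthase subunit Atp5b by -0.12 and the cytochrome oxidase subunit Cox4i1 by -0.084.

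Of 14 partners and antagonists of ETS factors, 13 passed the filter, with 4 higher and 9 lower means in truncated mice and a median difference of -0.32. At an unadjusted p of 0.05 in limma, 2 were higher and 1 lower (8.79% and 5.31% of all genes). The truncated arrays lay above all full-length arrays for 2 of them and below for 3 (10.3% and 8.76% of all genes). Irf8, which binds DNA together with PU.1 in monocytes and dendritic cells, read 8.32, 8.28, 8.95 and 8.90 on the truncated and 6.30, 5.96, 6.84 and 6.88 on the full-length arrays (limma, adjusted p = 0.0821). Every truncated array was above every full-length array, including arrays 2 and 3 of animal 2, where Spi1 lay in the full-length range. Cebpa, the myeloid factor that works beside PU.1, averaged 7.20 ± 0.35 in truncated and 5.94 ± 0.56 in full-length mice (SD, n = 2 animals each), and its arrays did not overlap either (limma, adjusted p = 0.223). Gata2, a stem cell and mast cell factor that can oppose PU.1, averaged 9.26 ± 0.25 in truncated and 10.15 ± 0.29 in full-length mice (SD, n = 2 animals each), a difference of -0.89 (limma, adjusted p = 0.245). Myb, a progenitor factor, differed by -0.63 (limma, adjusted p = 0.407). With the animal number as a replicate block, 5 of the 13 passed the unadjusted p (18.4% of all genes) and 1 the adjusted p, Irf8 (limma, adjusted p = 0.0423, 1.81% of all genes). With the animal and array number as a replicate block, 7 passed the unadjusted p (27.3%) and 4 the adjusted p (8.28%). These 4 were Irf8, Jun and Cebpa with higher and Gata2 with lower values. The limits given above for the block fits of the PU.1 targets hold here too.

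Of 16 further ETS family genes listed, 14 were on the array and 8 passed the filter, 5 with a higher and 3 with a lower mean in truncated mice, with a median difference of 0.10. At an unadjusted p of 0.05 in limma, 2 were higher and 0 lower (8.79% and 5.31% of all genes). Elk3, a serum response partner, read 6.54, 7.05, 6.09 and 6.41 on the truncated and 4.51, 4.06, 5.35 and 5.51 on the full-length arrays, a difference of 1.79 (limma, adjusted p = 0.0825). Elk3 lay below the array median on the 2 full-length arrays with low Fli1, so the size of its difference is uncertain. Spic, the factor of red pulp macrophages, read 6.81, 7.03, 6.36 and 6.27 on the truncated and 5.16, 5.30, 5.84 and 5.84 on the full-length arrays, a difference of 1.27 (limma, adjusted p = 0.141). Both had truncated arrays above all full-length arrays, which made 2 of the 8 genes (10.3% of all genes), and Spic is also on the macrophage marker list. Elk4 differed by -0.46 and Elf2 by -0.39, and Elf2 was the 1 of the 8 with truncated arrays below all full-length arrays (8.76% of all genes). With the animal number as a replicate block, 1 of the 8 passed the adjusted p, Elk3 (limma, adjusted p = 0.0464, 1.81% of all genes). The pairing in this fit is not in the labels beyond the shared numbers.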

How the data were processed

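The deposited table holds log2 values of 45101 probe sets on 8 arrays. The authors made them with RMA, per the submitters' processing notes, which give no version. Their log base was inferred from their range. Total RNA was hybridised to Affymetrix mouse arrays, per the labels' protocols. Each probe set was named through the platform annotation, in which 34945 had 1 symbol. Probe sets with several symbols (932) or none were left out, as were 64 control probe sets. Arrays of an animal were averaged, because the labels do not say whether they were separate extractions. Each gene took its brightest probe set, and 11386 genes passed a filter that asked for 2 or more of 4 animals above the median of all probe sets. The genotypes were compared, truncated minus full-length, in R 4.3.3 with limma 3.58.1 (lmFit, eBayes, 2 residual and 3.25 prior degrees of freedom), with Benjamini-Hochberg adjustment over all genes kept. The p-values rest on the spread between 2 animals per genotype, as the labels assign them, which eBayes draws towards the spread of all genes. An exact permutation test of 2 against 2 cannot go below 0.333 (two-sided). For arrays, their number limits the precision. The fit was tested on simulated data in 20 runs. Of the changes put in, it found 0.8% at 1 log2 unit, 49.1% at 2, 85.3% at 3 and 92.6% at 4. A factor that differs by 1 log2 unit or less would thus seldom be found with these animals. The rates for larger changes describe the simulated data and do not carry over to these arrays. Here 0 of 11386 genes passed, and even Ltf (difference 4.20) and Camp (4.09) did not (limma, adjusted p = 0.0825 for each).

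The members and gene lists were chosen with earlier results of these data known. All members were named, with up to 4 genes of smallest p from each other list (marker lists are given as medians and sums, and a gene on 2 lists counts for both) and up to 3 nearest profiles per member that spanned over 1 log2 unit. Btk and the genes named as below the array median were chosen after their values were seen. The same holds for the PU.1 targets named as highest or lowest on arrays 2 and 3 of truncated animal 2. The erythroid and megakaryocyte markers named for their array pattern were also chosen after their values were seen. Same-numbered arrays of the genotypes deviated together from their group means (correlations 0.301, 0.143, 0.229 and 0.214 over 11386 genes), so fits with the number as a block are given. A pairing is not in the labels beyond the shared numbers. Alternatives were the probe set, the filter, the unit of replication, the block, the spread model, the centring and arrays left out.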

Additional observations from a re-analysis of the deposited data

Results flagged for a closer look

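Among the 20 groups of 4 arrays formed by the 10 factors and the 2 genotypes, 1 held an array far from the others. Gabpa on the array of truncated animal 1 read 7.62, against 8.23, 8.17 and 8.13 on the other truncated arrays. Its gap to the nearest of these was 0.834 of the range of the group, just above Dixon's critical value of 0.829 for 4 values. This array is the only one of its animal and the other 3 are of the other truncated animal, so the gap is one between 2 animals set against the spread of arrays of 1 animal. The chance rate of about 1 in 20 groups is for independent samples and does not hold here.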

How the results depend on the processing

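Over 24 alternatives, 0 factors passed an adjusted p of 0.05 in limma except with 1 array per animal (4) and without all arrays of full-length animal 2 (1). The count at an unadjusted p of 0.05, 1 in the report, was 2 with the mean of the probe sets and with every probe set as its own feature, 6 with 1 array per animal and 3 without all arrays of full-length animal 2. It was 0 with a filter at the 75th percentile, with the animal as a random block, with an intensity trend and robust prior, with arrays centred on their median, without array 1 of animal 2 in both genotypes and without the 2 full-length arrays with low Fli1. It ranged from 0 to 3 when each array was left out in turn. With a replicate block, which pairs same-numbered samples, it was 3 for the animal number and 0 for the animal and array number, and the block changed no adjusted call of a factor. The median difference of 0.19 was -0.33 without the 2 full-length arrays with low Fli1, and 0.069 to 0.27 with each array left out in turn.

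Fli1 (-0.94), Erg (-0.46), Etv6 (-0.21), Elf4 (-0.15) and Ets2 (0.25) turned direction without those 2 full-length arrays, which leaves 1 full-length animal. Ets1 turned to 0.11 with the mean of its probe sets, 0.025 with the animal and array number as a replicate block and 0.33 without all arrays of full-length animal 2. With each array left out in turn, Ets1 ranged from -0.61 to 0.66, Ets2 from -0.26 to 0.069 and Elf4 from -0.048 to 0.24. The cause was not tested. Over all 24, Spi1 ranged from 0.27 to 1.53, Gabpa from -0.89 to -0.33 and Elf1 from -0.62 to -0.054. Low values limit Spib, which did not pass the filter and whose differences are of uncertain size.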

Other observations

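A few genes of the ETS family and its partners had marked array patterns that the comparison of genotypes does not show, and they were chosen after their values were seen. Etv5, an ETS factor that did not pass the filter, read 3.36 for truncated animal 1 and 4.70, 3.22 and 3.48 for the 3 arrays of truncated animal 2, against 6.18 for full-length animal 1 and 5.82, 3.19 and 3.48 for the 3 arrays of full-length animal 2. It was thus high on the full-length arrays where Fli1 was low. Etv3, an ETS repressor, read 6.72, 6.94, 7.98 and 7.89 on the truncated and 6.49, 6.11, 7.98 and 7.97 on the full-length arrays, with arrays 2 and 3 of animal 2 highest in both genotypes. Jun, a partner of ETS factors, read 10.13, 10.80, 12.23 and 12.24 on the truncated and 9.19, 9.28, 11.41 and 11.43 on the full-length arrays, and was also highest on arrays 2 and 3 of animal 2 in both genotypes. Runx1, the partner of CBFb, read 6.95, 6.97, 7.11 and 7.20 on the truncated and 6.79, 6.41, 9.11 and 9.15 on the full-length arrays. Within the full-length mice Runx1 was lower on the same 2 arrays as Fli1. Unlike for Fli1, these 2 arrays lay near the truncated ones, and arrays 2 and 3 of full-length animal 2 stood above all others. Irf4, which binds with PU.1 and Spib in B cells, did not pass the filter and lay below the array median on 6 arrays. It read 4.10, 4.32, 5.57 and 5.53 on the truncated and 3.50, 3.77, 4.05 and 4.09 on the full-length arrays. Irf4 was highest on the 2 arrays where Spib was highest.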
